A study of Rattus norvegicus with 10 samples.

Results

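The tumour necrosis factor (TNF) superfamily comprises the ligands named after TNF and the receptors that bind them. Its members were taken here as the genes whose only symbol in the platform annotation was Tnf, Lta, Ltb, Fas, Faslg, Cd27, Cd40, Cd40lg or Cd70, or began with Tnfrsf or Tnfsf. This gave 35 genes, 14 ligands and 21 receptors, of 18166 genes measured on Affymetrix rat arrays. Each of the 35 was read by 1 probe set. The samples were whole testes of Zucker rats, a model of obesity in which the fa allele damages the leptin receptor. All rats were 14 weeks old and labelled as sexually mature. There were 4 normally developed testes of obese rats, 4 under-developed testes of obese rats and 2 normally developed testes of lean rats, with 1 array each. The labels give the model as Zucker (fa/fa) for all 3 groups, and the text on collection calls the rats of all 3 groups obese, so the genotype of the lean rats is not settled by them. The labels call the replicates biological but do not tie each testis to an animal of its own, and the p-values thus measure the spread between these samples only. In whole tissue, fewer cells of a type and less RNA per cell cannot be told apart.

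The ligands are mostly membrane proteins made by immune cells, some of which are shed as soluble cytokines, and the receptors sit on many cell types. Receptors with a death domain, such as Tnfrsf1a and Fas, can start apoptosis, while receptors that bind TRAF adaptors switch on NF-kB and stress kinases and often favour survival. In the testis, TNF is known as a product of macrophages and germ cells that acts on Sertoli and Leydig cells, and the Fas system is known for its part in germ cell death.

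The values are log2 expression, so a difference of 1 is a doubling. The 4 under-developed testes were not alike. Their mean correlation with the 6 normal arrays over all genes was 0.856, 0.946, 0.731 and 0.995 for replicates 1 to 4, so replicate 4 was close to the normal testes. Marker lists moved with it. The mean of 12 spermatid markers was 11.94 to 11.97 in normal obese testes, 11.95 to 12 in lean testes and 7.66 to 11.94 in under-developed testes, where it differed by -2.69, -0.79, -4.30 and -0.02 in replicates 1 to 4. The mean of 13 macrophage markers was 6.96 to 7.33, 6.87 to 7.10 and 7.07 to 9.12 in the same groups. Without replicate 4, 29.6% of all genes were called higher and 26.4% lower. Beside these shares, 11 spermatid markers were called lower and 0 higher, and 12 macrophage markers higher and 1 lower. Of 17 Sertoli markers, 13 were called higher and 1 lower, and 8 of 8 fibroblast markers were called higher. The part of these markers in the results on the superfamily was not tested. Results are therefore given by array, from all arrays, and without under-developed replicate 4, a choice made after the values were seen.

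The largest differences from normal testes were in receptors. Replicates 1 to 3 of the under-developed group had, on average, 3.33 log2 units more Tnfrsf1a signal than normal obese testes (6.08-fold in the lowest and 14.2-fold in the highest array), 7.30-fold more Tnfrsf12a and 5.81-fold more Tnfrsf11b. Of the ligands, Cd70 was 4.01-fold higher, Tnfsf10 2.88-fold and Tnfsf13b 2.28-fold. Tnf itself, Faslg and Fas stayed within 0.32 of normal on the log2 scale in the same 3 arrays on average, and did not pass the test.

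With all 4 under-developed arrays, limma called 0 of the 35 members at an adjusted p under 0.05, and 0 of 18166 genes (0.0% higher, 0.0% lower). At an unadjusted p under 0.05, 11 members were higher and 0 lower, against 24.4% of all genes higher and 22.3% lower. Without replicate 4, limma called 13 of 35 members higher, which is 37.1% against 29.6% of all genes, and 0 lower against 26.4% of all genes. The share of members that were higher was thus near that of all genes, while none was lower. Members were mostly of low signal. Only 4 of the 35 had a mean at or above the median of all genes, and 12 lay below the 25th percentile. The part of this low signal in the absence of lower members was not tested. At an unadjusted p under 0.05 it was 14 members higher, against 32.2% of genes. Of the 13 members called, 5 were ligands and 8 receptors. The median difference of the 35 members was 0.22 with all arrays and 0.24 without replicate 4, beside 0.06 and 0.07 for all genes.

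By single array, replicates 1 and 2 had the same 6 members at least 2-fold above the normal obese mean, Cd70, Tnfrsf11b, Tnfrsf12a, Tnfrsf1a, Tnfsf10 and Tnfsf13b. In replicate 1 this was 17.1% of members against 15.5% of genes, and in replicate 2 it was 17.1% against 7.56%. Replicate 3 had 8 members past that size, adding Ltb and Tnfrsf1b, or 22.9% against 19.2% of genes. Replicate 4 had 0 such members, against 0.0385% of genes. No member was 2-fold below the normal obese mean in any of the 4 arrays, against 15.6%, 6.18%, 16.8% and 0.0055% of genes in replicates 1 to 4. The limit of low signal applies to this count as well. Counted against all 6 normal arrays, 18, 20, 27 and 10 members lay above them in replicates 1 to 4, against 40.7%, 34.2%, 49.5% and 17.8% of genes, and 6, 5, 0 and 6 members lay below, against 37.8%, 38.3%, 32.0% and 18.6%. The 14 members above the normal arrays in each of replicates 1 to 3 were the 13 called and Cd40, against 28.7% of genes. The median difference of the members was 0.09, 0.19, 0.49 and -0.02 in the 4 arrays in turn.

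**Figure D1:**
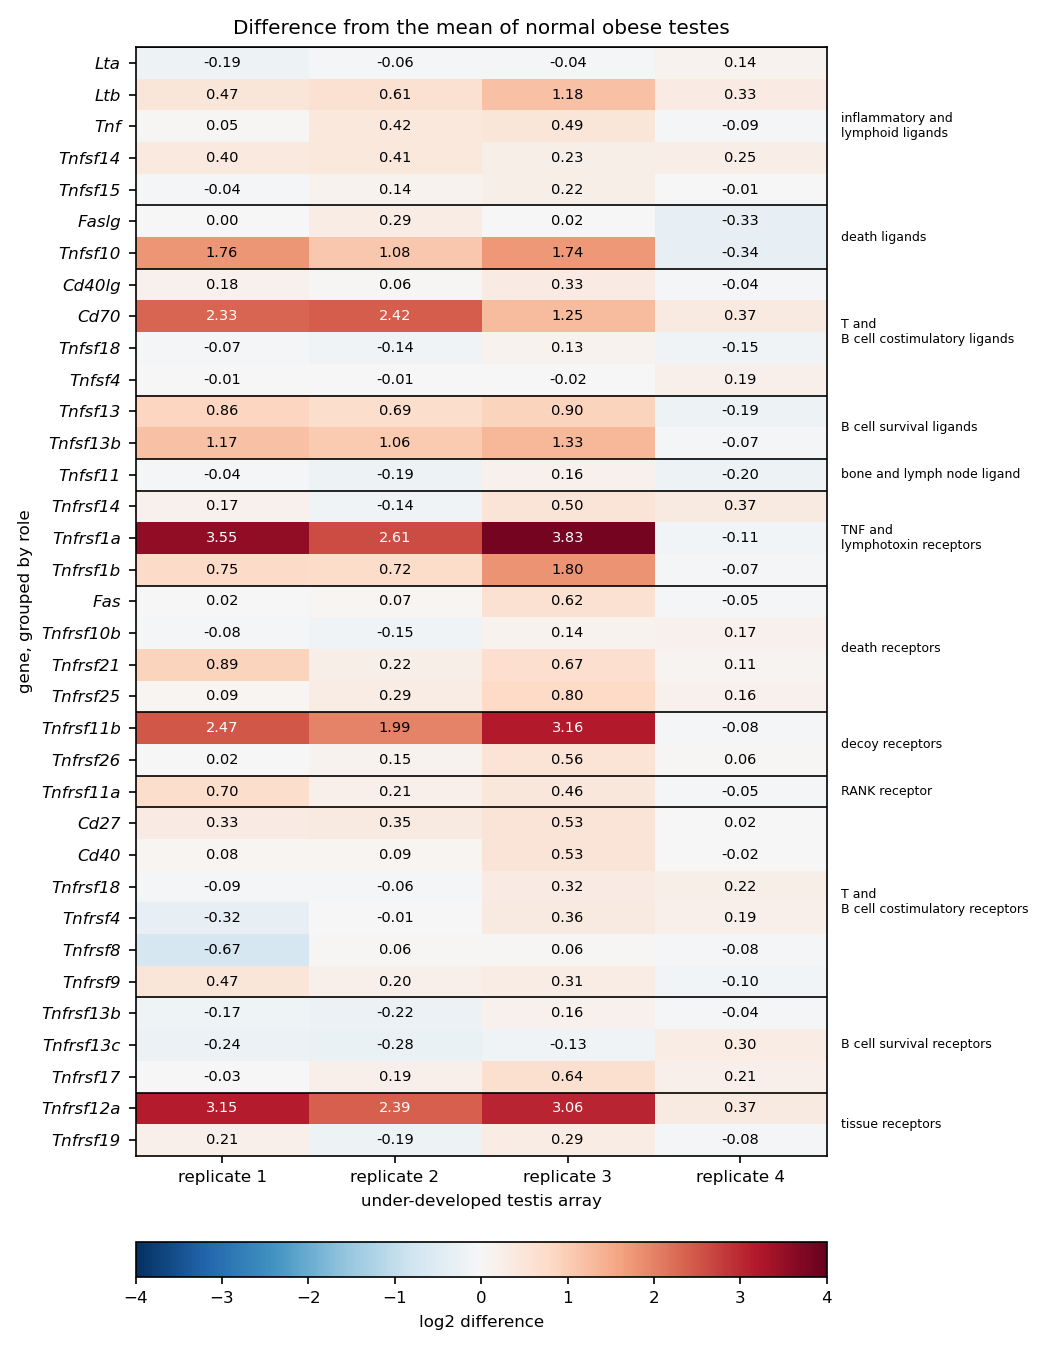
Heat map of the log2 difference of each under-developed array (columns) from the mean of the 4 normal obese testes for the 35 members, grouped by role, red for higher and blue for lower. Tnfrsf1a, Tnfrsf12a, Tnfrsf11b, Cd70 and Tnfsf10 are at least 1 higher in replicates 1 to 3, while in replicate 4 no member differs by more than 0.37.

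Tnfrsf1a, the death-domain receptor through which TNF triggers most of its inflammatory and lethal effects, had the largest difference of the members. Its values were 6.89, 6.79, 6.73 and 6.69 in normal obese testes, 10.32, 9.38, 10.60 and 6.67 in under-developed replicates 1 to 4, and 6.36 and 6.19 in lean testes. Replicates 1 to 3 were far above every normal array, and replicate 4 was just below the normal obese range. The difference was 2.47 ± 0.74 (SE, 95% interval 0.81 to 4.13; limma adjusted p = 0.0702, n = 4 and 4) with all arrays. Without replicate 4 it was 3.33 (2.75 to 3.90; limma adjusted p = 5.79e-05).

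Tnfrsf1b, the TNF receptor without a death domain, which is prominent on immune and endothelial cells, was higher in the same 3 arrays but by less. It read 6.73, 6.40, 6.67 and 6.62 in normal obese testes, 7.35, 7.32, 8.41 and 6.54 in under-developed testes, and 6.79 and 6.59 in lean testes. Replicate 3 stood more than 1 log2 unit above the rest of its group. The difference was 0.80 ± 0.33 (limma adjusted p = 0.0911) with all arrays and 1.09 (0.52 to 1.66; adjusted p = 0.00557) without replicate 4.

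The ligands of these receptors did not pass the test. Their signal was low, with the mean of Tnf at percentile 19.1 of all genes and that of Lta at 30.5. This limits what the absence of a call can show. Tnf read 5.05, 5.23, 5.13 and 5.50 in normal obese testes, 5.28, 5.65, 5.72 and 5.14 in under-developed testes, and 5.55 and 5.26 in lean testes, so the groups overlapped. Its difference was 0.22 ± 0.17 (-0.16 to 0.60; limma adjusted p = 0.326), and 0.32 (-0.03 to 0.67; adjusted p = 0.111) without replicate 4. Lta, the soluble lymphotoxin that binds the same receptors, differed by -0.10 (-0.32 to 0.12; adjusted p = 0.432) without replicate 4. Ltb, which holds lymphotoxin on the cell membrane and signals through the lymphotoxin beta receptor, was called higher without replicate 4. Its contrast with Tnf and Lta was not itself tested. It read 5.54, 5.48, 5.20 and 5.45 in normal obese testes, 5.89, 6.02, 6.60 and 5.75 in under-developed testes and 5.45 and 5.35 in lean testes. All 4 under-developed arrays lay above all 6 normal arrays for Ltb. Its difference was 0.65 ± 0.18 (limma adjusted p = 0.0702), and 0.75 (0.36 to 1.15; adjusted p = 0.00552) without replicate 4.

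The 250 bases before the start of Tnf, Ltb, both TNF receptors, Tnfrsf12a and Cd70 are shown. Tnf and Ltb share a locus, and Tnfrsf1a and Tnfrsf1b share a ligand. Tnfrsf12a, Cd70 and Ltb are the 3 members for which all 4 under-developed arrays lay above all normal obese arrays. The windows are RefSeq sequences in build GRCr8, which may differ from the build behind the arrays. Capitals mark matches, on either strand, to the kB core that NF-kB dimers can bind, searched as GGG and CC with any 5 bases between.
Tnfrsf1a (chr4:159836869-159837118, plus strand): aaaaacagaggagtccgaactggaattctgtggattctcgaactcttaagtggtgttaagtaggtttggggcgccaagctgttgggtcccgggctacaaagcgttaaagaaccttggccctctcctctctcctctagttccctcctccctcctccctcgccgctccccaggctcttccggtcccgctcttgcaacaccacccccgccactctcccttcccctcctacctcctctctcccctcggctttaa
Tnfrsf1b (chr5:162387412-162387661, minus strand): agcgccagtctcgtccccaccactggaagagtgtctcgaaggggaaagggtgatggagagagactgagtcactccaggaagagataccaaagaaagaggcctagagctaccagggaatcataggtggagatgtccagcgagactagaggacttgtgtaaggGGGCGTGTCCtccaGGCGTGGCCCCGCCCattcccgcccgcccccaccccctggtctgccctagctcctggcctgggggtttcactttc
Tnfrsf12a (chr10:13213649-13213898, minus strand): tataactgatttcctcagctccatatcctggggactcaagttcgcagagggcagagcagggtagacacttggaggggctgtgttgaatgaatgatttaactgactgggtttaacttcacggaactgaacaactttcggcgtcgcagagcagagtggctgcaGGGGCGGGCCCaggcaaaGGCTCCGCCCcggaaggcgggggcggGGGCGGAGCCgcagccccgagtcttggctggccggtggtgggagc
Cd70 (chr9:2096693-2096942, minus strand): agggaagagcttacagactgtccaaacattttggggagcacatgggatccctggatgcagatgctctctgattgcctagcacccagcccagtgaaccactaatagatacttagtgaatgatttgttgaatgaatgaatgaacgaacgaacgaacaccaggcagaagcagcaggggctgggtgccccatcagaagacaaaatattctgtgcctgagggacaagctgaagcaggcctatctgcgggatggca
Ltb (chr20:3634055-3634304, minus strand): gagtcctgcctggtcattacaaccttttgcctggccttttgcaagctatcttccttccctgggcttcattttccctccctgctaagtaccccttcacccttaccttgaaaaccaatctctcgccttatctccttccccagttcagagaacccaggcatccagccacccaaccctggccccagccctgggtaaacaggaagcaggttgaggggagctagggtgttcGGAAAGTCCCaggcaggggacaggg
Tnf (chr20:3626435-3626684, plus strand): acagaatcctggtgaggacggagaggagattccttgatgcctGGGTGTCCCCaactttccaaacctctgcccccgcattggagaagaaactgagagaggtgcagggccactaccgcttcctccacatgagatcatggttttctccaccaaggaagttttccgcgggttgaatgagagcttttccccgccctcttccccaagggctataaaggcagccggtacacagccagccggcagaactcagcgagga

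The windows of Tnfrsf1a and Cd70, among the members with the largest differences, held 0 matches to this core. Ltb had 1, GGAAAGTCCC, which reads GGGACTTTCC on the other strand and ends 16 bases before the start. Tnf had 1, GGGTGTCCCC, which begins 208 bases before the start. Tnfrsf1b had 3 matches, of which 2 overlapped a GC box (GGGCGG), and Tnfrsf12a had 4, all overlapping a GC box. Over all members with an entry, 15 of 27 windows held a kB core (55.6%, against 42.3% of all 33469 promoters), 14 held a GC box (51.9% against 30.5%) and 7 held TATAAA (25.9% against 12.9%). Of the 13 members called without replicate 4, 11 had an entry, and 5 of these held a kB core, 4 a GC box and 0 TATAAA. A match is a description of letters and not a site, and the absence of one says only that these letters are not in the window.

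The receptor of TWEAK, Tnfrsf12a (Fn14), is a small receptor known to be induced by injury and growth factors. With Cd70 and Ltb it was 1 of 3 members for which all 4 under-developed arrays lay above all normal obese arrays, or 8.57% against 7.44% of all genes, while 0 members and 10.4% of genes lay below. Tnfrsf12a read 6.66, 6.60, 6.78 and 6.84 in normal obese testes, 9.87, 9.11, 9.78 and 7.09 in under-developed testes, and 7.02 and 6.65 in lean testes. Replicate 4 was above both normal groups, by less than replicates 1 to 3. The difference was 2.24 ± 0.54 (1.03 to 3.46; limma adjusted p = 0.0702), and 2.87 (2.43 to 3.30; adjusted p = 5.04e-05) without replicate 4. The probe set that carries Tnfsf12, the TWEAK gene, carries Tnfsf13 as well, so TWEAK was not analysed here.

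**Figure D2:**
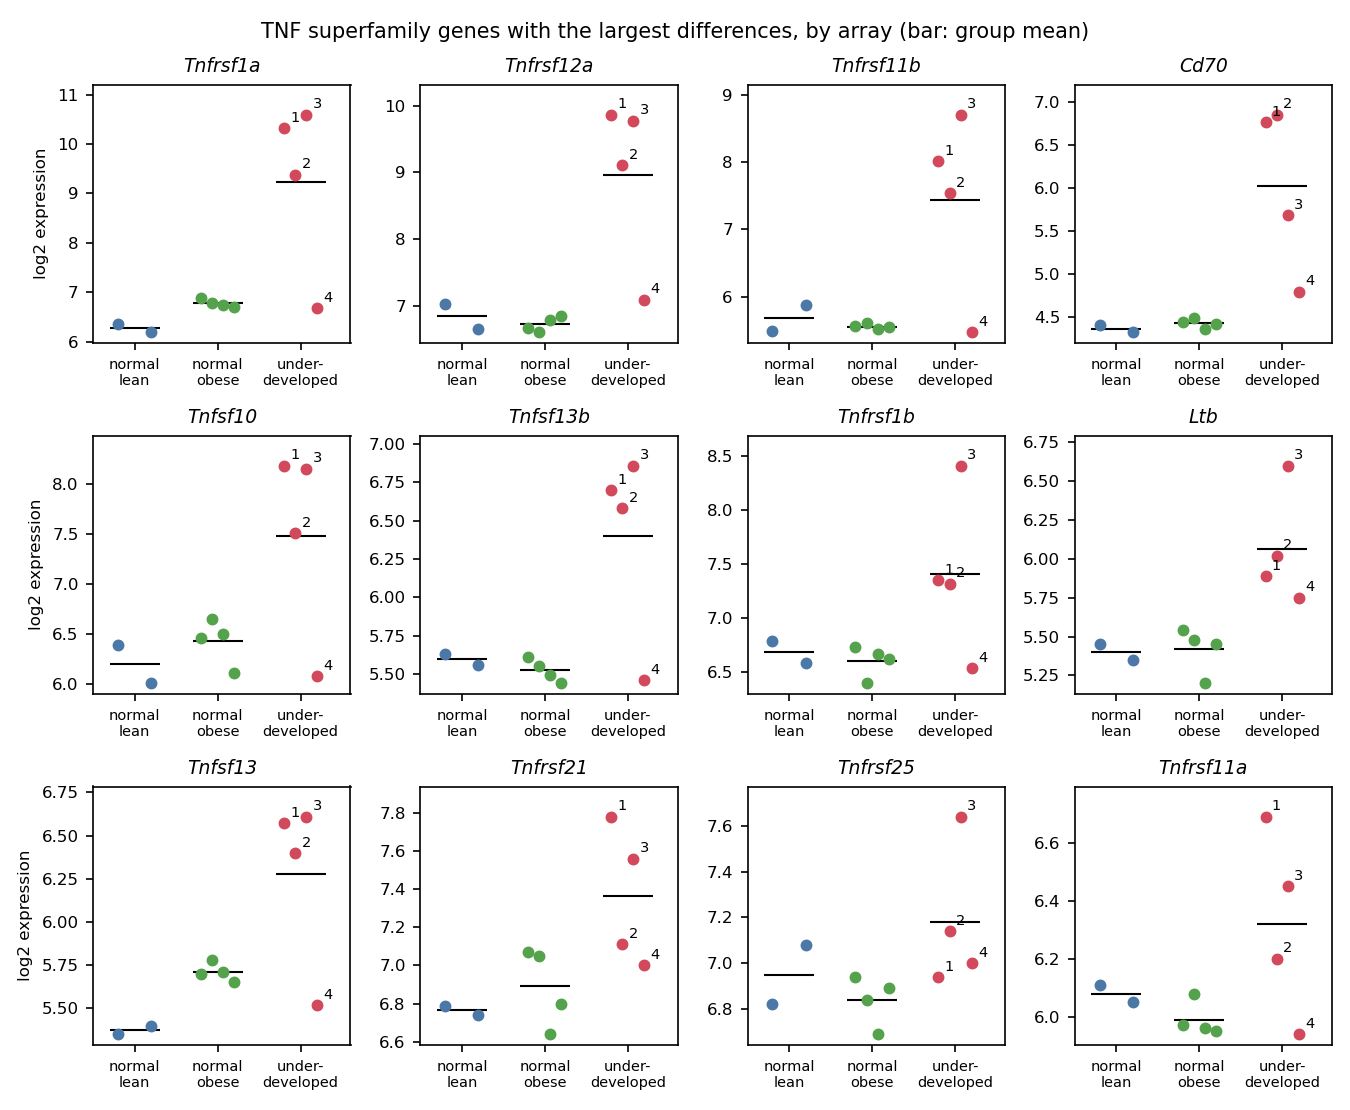
Log2 expression of the members with the largest differences in each of the 10 arrays, with group means as bars. Under-developed replicates 1 to 3 stand above the normal arrays except for Tnfrsf25, where replicate 1 (6.94) lies within their range. Replicate 4 lies near the normal arrays, as for Tnfrsf1a at 6.67 against 10.32, 9.38 and 10.60.

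Among the death ligands, Tnfsf10 (TRAIL), which kills through death-domain receptors, rose without replicate 4, while its signalling receptor did not pass the test. Tnfsf10 read 6.46, 6.65, 6.50 and 6.11 in normal obese testes, 8.19, 7.51, 8.16 and 6.08 in under-developed testes, and 6.39 and 6.01 in lean testes. Its difference was 1.06 ± 0.42 (0.10 to 2.02; limma adjusted p = 0.0867), and 1.53 (1.06 to 1.99; adjusted p = 3.84e-04) without replicate 4. Tnfrsf10b, the TRAIL receptor with a death domain, read 6.45, 6.57, 6.53 and 6.43 in normal obese testes and 6.41, 6.34, 6.64 and 6.66 in under-developed testes, a difference of -0.03 (-0.27 to 0.21; limma adjusted p = 0.824) without replicate 4. The lean testes read 6.29 and 6.17 for it.

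Fas and its ligand, the pair known for germ cell apoptosis, did not pass the test. Fas read 6.89, 6.90, 6.70 and 6.80 in normal obese testes, 6.85, 6.89, 7.44 and 6.77 in under-developed testes and 6.79 and 6.77 in lean testes. Only replicate 3 stood above all normal arrays. Faslg read 5.45, 5.46, 5.47 and 5.25 in normal obese testes, 5.41, 5.70, 5.42 and 5.08 in under-developed testes and 5.35 and 5.44 in lean testes. Without replicate 4 the differences were 0.24 (-0.11 to 0.58; limma adjusted p = 0.218) for Fas and 0.10 (-0.15 to 0.36; adjusted p = 0.459) for Faslg. Tnfrsf21, a death receptor best known in neurons, read 7.07, 7.05, 6.64 and 6.80 in normal obese testes, 7.78, 7.11, 7.56 and 7.0 in under-developed testes and 6.79 and 6.74 in lean testes. It rose by 0.60 (0.20 to 0.99; limma adjusted p = 0.0172) without replicate 4, from 0.47 ± 0.19 (adjusted p = 0.0861) with all arrays. Leaving out under-developed replicate 1 as well, the call on Tnfrsf21 was lost. Tnfrsf25, a death-domain receptor of lymphocytes, read 6.94, 6.84, 6.69 and 6.89, then 6.94, 7.14, 7.64 and 7.0, and 6.82 and 7.08 in the same groups. It differed by 0.40 (0.01 to 0.78; limma adjusted p = 0.0767) without replicate 4, and its ligand Tnfsf15 by 0.11 (-0.18 to 0.39; adjusted p = 0.502).

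Osteoprotegerin, encoded by Tnfrsf11b, is a secreted decoy receptor that binds Tnfsf11 (RANKL) and Tnfsf10 without signalling. It read 5.56, 5.60, 5.51 and 5.54 in normal obese testes, 8.02, 7.54, 8.71 and 5.47 in under-developed testes and 5.48 and 5.88 in lean testes. Replicate 3 was highest and replicate 4 was below all normal arrays. The difference was 1.88 ± 0.58 (0.58 to 3.19; limma adjusted p = 0.0702), and 2.54 (1.99 to 3.09; adjusted p = 1.00e-04) without replicate 4. Of the 2 ligands it binds, Tnfsf10 was higher by 1.53 without replicate 4, and Tnfsf11 did not pass the test. Tnfrsf11a (RANK), the signalling receptor of RANKL, read 5.97, 6.08, 5.96 and 5.95, then 6.69, 6.20, 6.45 and 5.94, and 6.11 and 6.05 in normal obese, under-developed and lean testes, and rose by 0.46 (0.18 to 0.74; adjusted p = 0.0118) without replicate 4. Tnfsf11 read 6.07, 6.05, 6.03 and 6.20, then 6.04, 5.89, 6.25 and 5.89, and 5.92 and 6.14, and its difference was -0.02 (-0.29 to 0.24; adjusted p = 0.882).

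The costimulatory pairs of lymphocytes differed among themselves. Cd70, the ligand that drives T and B cells through Cd27, was the ligand with the largest difference. It read 4.44, 4.49, 4.36 and 4.41 in normal obese testes, 6.76, 6.85, 5.68 and 4.79 in under-developed testes, and 4.40 and 4.32 in lean testes. All 4 under-developed arrays exceeded every normal array. Replicate 3 was below replicates 1 and 2 for Cd70, and also for Tnfsf14. It was the highest array for Tnfrsf1a, Tnfrsf1b, Tnfrsf11b and Ltb, whereas replicate 1 was highest for Tnfrsf12a, Tnfsf10 and Tnfrsf21. The difference of Cd70 was 1.59 ± 0.41 (0.68 to 2.51; limma adjusted p = 0.0702), and 2.00 (1.43 to 2.58; adjusted p = 2.97e-04) without replicate 4. Its receptor Cd27, on T cells and some B cells, ranged from 5.52 to 5.65 in normal obese testes, read 5.94, 5.95, 6.13 and 5.62 in under-developed testes, and rose by 0.40 (0.19 to 0.62; adjusted p = 0.00649) without replicate 4. Of the 12 T cell markers measured, 5 were called higher (41.7%, against 29.6% of all genes) and 1 lower (8.33%, against 26.4%) without replicate 4. Of the chains of the T cell receptor complex, Cd3g rose by 0.49 (adjusted p = 0.00671) and Cd247 by 0.61 (adjusted p = 0.00809), while Cd3d differed by -0.07 (adjusted p = 0.564) and Cd3e by 0.00 (adjusted p = 0.98). Cd2, Il7r and Trat1 rose by 0.76, 0.82 and 0.50, and Lck fell by 0.56. The part of T cells in the rise of Cd27 was not tested.

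Cd40 and its ligand did not pass the test. Cd40, the receptor through which T cells license B cells and antigen-presenting cells, read 6.29, 6.31, 6.25 and 6.37, then 6.38, 6.39, 6.84 and 6.28, and 6.18 and 6.09 in normal obese, under-developed and lean testes. Replicates 1 to 3 lay above all 6 normal arrays, replicates 1 and 2 only narrowly. Its difference was 0.23 (-0.05 to 0.52; limma adjusted p = 0.15) without replicate 4. Cd40lg read 4.33, 4.35, 4.16 and 4.14, then 4.42, 4.30, 4.58 and 4.20, and 4.34 and 4.03, with a difference of 0.19 (-0.09 to 0.46; adjusted p = 0.219). Tnfrsf9 (4-1BB), a receptor of activated T and NK cells, rose by 0.32 (0.10 to 0.55; adjusted p = 0.0225) without replicate 4, the smallest rise among the 13. The call on Tnfrsf9 was lost when any of 4 further arrays was also left out, normal obese replicates 2, 3 and 4 and under-developed replicate 1. The costimulators Tnfsf4 with Tnfrsf4 (OX40), Tnfsf18 with Tnfrsf18 (GITR), Tnfsf14 (LIGHT) with Tnfrsf14, and Tnfrsf8 (CD30) had differences between -0.18 for Tnfrsf8 and 0.35 for Tnfsf14, and none passed the test. Tnfrsf19, an orphan receptor of epithelial and neural tissue, and Tnfrsf26, a decoy-type receptor, differed by 0.10 and 0.24 and did not pass it either.

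The survival factors of B cells passed the test only without replicate 4, and their receptors did not pass it, a contrast that was not itself tested. Tnfsf13b (BAFF) and Tnfsf13 (APRIL), which myeloid and stromal cells make, both rose without replicate 4. Tnfsf13b read 5.61, 5.55, 5.49 and 5.44 in normal obese testes, 6.70, 6.58, 6.86 and 5.46 in under-developed testes and 5.63 and 5.56 in lean testes. Its difference was 0.87 ± 0.27 (limma adjusted p = 0.0702), and 1.19 (0.96 to 1.41; adjusted p = 6.98e-05) without replicate 4. Tnfsf13 read 5.70, 5.78, 5.71 and 5.65, then 6.57, 6.40, 6.61 and 5.52, and 5.35 and 5.40. Replicate 4 was below the normal obese arrays for Tnfsf13, and replicates 1 to 3 were above them. The rise was 0.82 (0.61 to 1.03; adjusted p = 1.86e-04) without replicate 4, from 0.57 ± 0.22 (adjusted p = 0.0834). None of their 3 receptors on B cells and plasma cells passed the test. Tnfrsf13c (the BAFF receptor) differed by -0.22 (-0.49 to 0.05; adjusted p = 0.151), Tnfrsf13b (TACI) by -0.08 (-0.39 to 0.24; adjusted p = 0.66) and Tnfrsf17 (BCMA) by 0.27 (-0.10 to 0.64; adjusted p = 0.198). The B cell markers gave 2 of 6 higher without replicate 4 (33.3%, against 29.6% of all genes), Cd79a by 0.93 and Cd22 by 0.41. The 1 called lower (16.7%, against 26.4% of all genes) was Ms4a1, by -0.55.

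**Figure D3:**
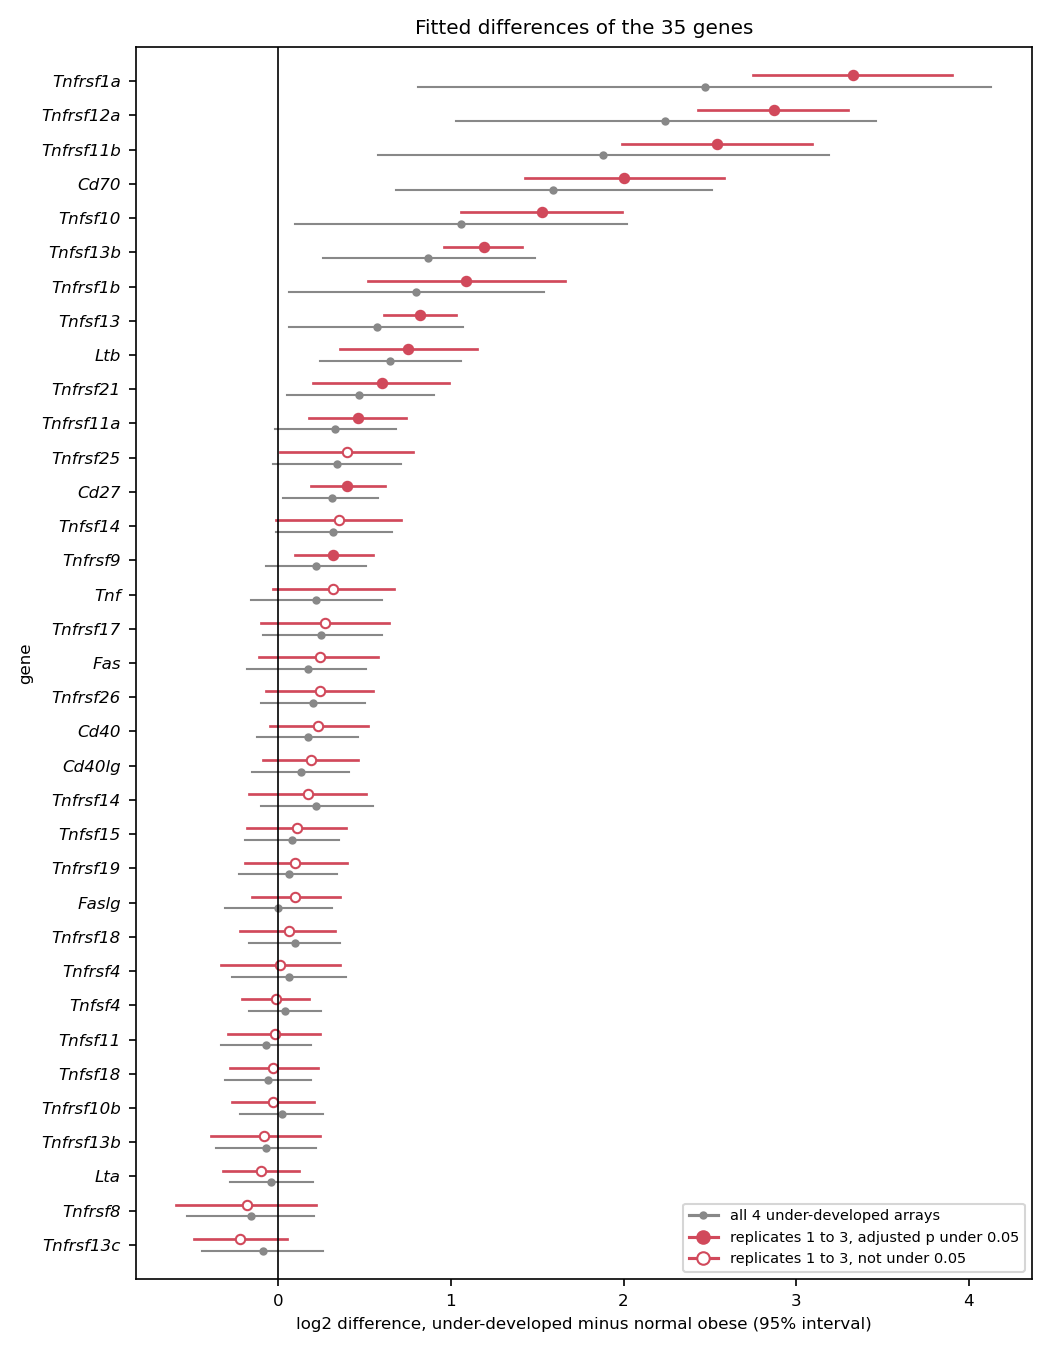
Fitted difference between under-developed and normal obese testes (log2) with its 95% interval for each member, with all arrays and without under-developed replicate 4. Without replicate 4 the intervals narrow and Tnfrsf1a (3.33), Tnfrsf12a (2.87) and Tnfrsf11b (2.54) lie highest, while Tnf (0.32) spans 0.

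Set as ligand and receptor, 19 pairs were chosen from the members, which do not cover every known pair. In 2 of the 19 both were called without replicate 4, Tnfsf10 with Tnfrsf11b and Cd70 with Cd27. The 19 leave out Ltb with Ltbr, a receptor outside the symbol rule. Ltb and Ltbr were both called higher without replicate 4, by 0.75 and 1.40. Only the receptor was called for Tnf and for Lta with both TNF receptors, and for Tnfsf11 with Tnfrsf11a and Tnfrsf11b. Only the ligand was called for Tnfsf10 with Tnfrsf10b, and for Tnfsf13b and Tnfsf13 with their B cell receptors. Neither was called for Faslg with Fas, Cd40lg with Cd40, Tnfsf4 with Tnfrsf4, Tnfsf18 with Tnfrsf18, Tnfsf14 with Tnfrsf14 and Tnfsf15 with Tnfrsf25. Some ligands that were not called had a low mean signal, at percentile 19.1 of all genes for Tnf, 19.8 for Faslg and 7.39 for Cd40lg. Cd70, which was called, was at 14.8. The part of low signal in these pairs was not tested.

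The number of members called higher depended on the scale. Median centring of each array left 12 members called higher and 1 lower (Tnfrsf13c) without replicate 4, against 24.7% and 29.8% of genes. Centring on 55 ribosomal protein genes, which shifted the median of all genes by -0.76, left 6 higher and 22 lower, against 11.9% and 71.2% of genes. Centring on the 17 Sertoli markers, with a shift of -1.40, left 3 higher and 28 lower, against 4.60% and 87.5%. A second quantile normalization left 12 higher and 0 lower, against 27.8% and 25.3%. Cd70, Tnfrsf11b, Tnfrsf12a, Tnfrsf1a and Tnfsf10 kept a positive difference under all of these, and Tnfrsf1a was still 1.92 higher, Tnfrsf12a 1.46 and Tnfrsf11b 1.13 relative to Sertoli markers. The other 8 called members turned negative under at least 1 of them, so their direction is relative to the array as a whole. Of the 35 members, 12 had a mean signal below the 25th percentile of all genes.

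The rest of the pathway was read from 5 lists, whose counts without replicate 4 stand against 29.6% of all genes higher and 26.4% lower. Beside the symbol rule, 3 of 6 further superfamily genes were called higher without replicate 4 and 0 lower, with a median difference of 0.43 beside 0.07 for all genes. These were Ltbr, the lymphotoxin beta receptor and partner of Ltb, by 1.40 (limma adjusted p = 2.58e-04), Eda2r by 1.51 (adjusted p = 0.00143) and Eda by 0.68 (adjusted p = 0.00168), the last 2 being the ectodysplasin system of skin appendages. With all arrays 0 of the genes in each list were called.

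Adaptors and death genes gave 10 of 17 higher and 2 lower, with a median of 0.64. Mlkl, the executioner of necroptosis, was higher by 2.63 (adjusted p = 7.05e-05), Cflar, which blocks caspase-8 at death receptors, by 2.36 (adjusted p = 6.98e-05), Xiap, a caspase inhibitor, by 2.27 and Ripk1, the kinase at the TNF receptor, by 1.75. Traf2, an adaptor of both TNF receptors, fell by 0.84 (adjusted p = 0.00168). The NF-kB and kinase list gave 14 of 18 higher and 0 lower, with a median of 0.89, led by Nfkb1 at 2.90 (adjusted p = 7.60e-05). Brakes on the pathway and genes of TNF shedding gave 8 of 11 higher and 1 lower, with a median of 0.70. Nfkbib fell by 0.71, with Nfkbia, the main NF-kB inhibitor and itself an NF-kB target, at 2.65 and Timp3, an inhibitor of TNF shedding, at 1.64. Adam17, the protease that sheds TNF, differed by 0.17 (adjusted p = 0.203).

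Of 21 genes that TNF is known to induce, 12 were called higher (57.1%, against 29.6% of all genes) and 2 lower (9.52%, against 26.4%) without replicate 4, with a median of 0.71. Csf1, a growth factor of macrophages, was higher by 2.77 (limma adjusted p = 1.14e-04), Vcam1, which anchors leukocytes, by 2.40 and Sod2 by 1.98. Il6 (0.13) and Il1b (0.22), cytokines at the centre of the response, did not pass the test, and Tnfaip2 fell by 2.23. Under-developed replicate 4 was within 0.27 of the normal obese mean for Nfkb1, Nfkb2, Nfkbia, Csf1, Vcam1 and Sod2.

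**Figure D4:**
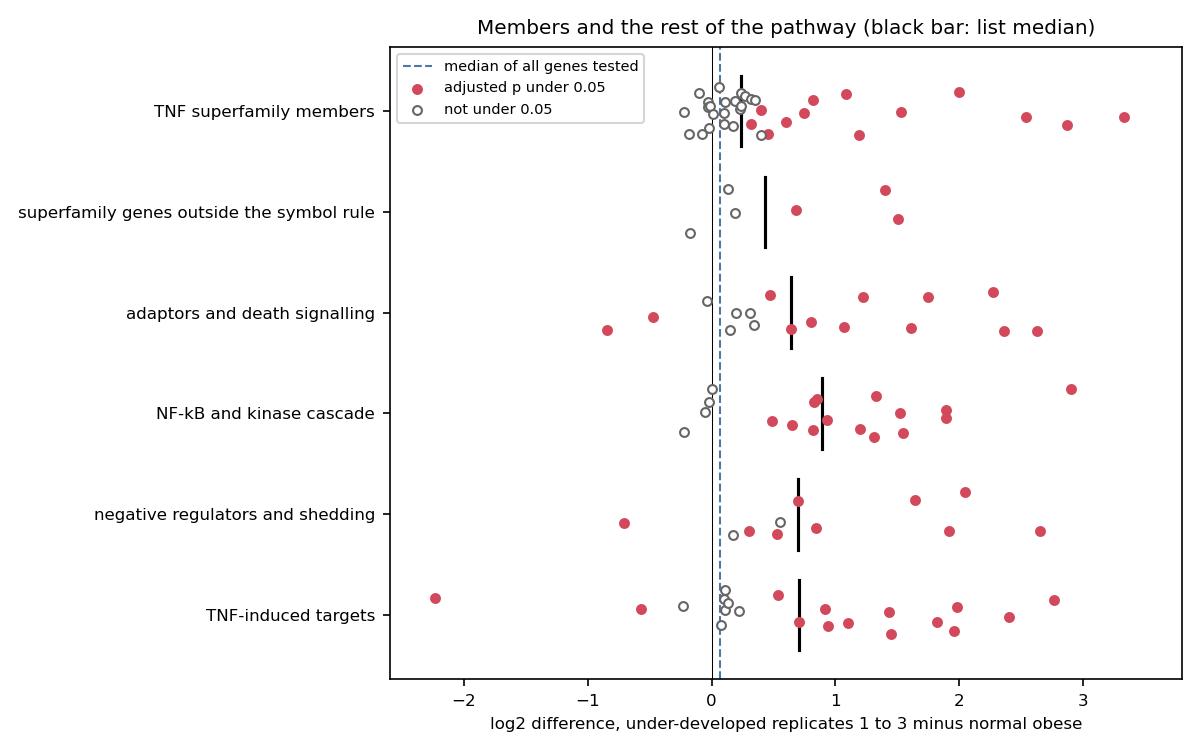
Difference of each gene of the 5 pathway lists without under-developed replicate 4 (log2, against normal obese testes), with the members on top, called genes filled and list medians as black bars. The median of the NF-kB and kinase list is 0.89, and Traf2 (-0.84), Nfkbib (-0.71) and Tnfaip2 (-2.23) are among the few genes that fell.

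Obese and lean rats with normally developed testes were then compared, with n = 4 and 2. limma called 0 members and 0 genes (0.0% higher, 0.0% lower). At an unadjusted p under 0.05, 0 members passed, against 0.121% of genes higher and 0.319% lower. The smallest p among members belonged to Tnfrsf10b, higher by 0.26 ± 0.13 (-0.03 to 0.56; adjusted p = 1) in obese rats. Tnfsf13 differed by 0.33 ± 0.27 (-0.29 to 0.95; adjusted p = 1) and Cd40 by 0.17 ± 0.16 (-0.19 to 0.52; adjusted p = 1). In 5 members every obese array lay above both lean arrays, or 14.3% against 7.70% of genes. These were Cd40, Tnfrsf10b, Tnfrsf1a, Tnfsf13 and Tnfsf4, and Cd27 and Tnfrsf18 lay below (5.71% against 7.27%). For Tnfrsf1a the difference was 0.50 ± 0.90 (-1.54 to 2.54). The fit shares 1 spread per gene among all groups, so the unlike under-developed arrays widen the errors of this comparison. The SD of Tnfrsf1a was 0.09 in normal obese, 0.12 in lean and 1.79 in under-developed testes. The low number of calls is therefore no measure of how alike obese and lean rats are. A fit of the 2 normal groups only also called 0 members higher and 0 lower. The median difference of the members was -0.01, beside 0.01 for all genes.

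Against lean rats, under-developed testes gave 0 members called with all arrays (limma, 0.0% of genes), with 9 members higher and 0 lower at an unadjusted p under 0.05, against 17.5% and 14.3% of genes. Without replicate 4, 10 members were called higher, or 28.6% against 25.6% of genes, and 0 lower against 23.2%. At an unadjusted p under 0.05, 14 were higher, against 28.8% of genes. The 10 were Cd70, Ltb, Tnfrsf11b, Tnfrsf12a, Tnfrsf1a, Tnfrsf1b, Tnfrsf21, Tnfsf10, Tnfsf13 and Tnfsf13b. This comparison shares its under-developed arrays with the one against obese rats. Tnfrsf1a was 2.97 ± 0.90 higher than in lean testes with all arrays (limma adjusted p = 0.154) and 3.83 (3.14 to 4.52; adjusted p = 1.57e-04) without replicate 4. Tnfsf13 was 0.90 ± 0.27 higher (adjusted p = 0.154), and 1.15 (0.90 to 1.40; adjusted p = 2.17e-04) without replicate 4.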

How the data were processed

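Testis RNA of 10 samples was measured on Affymetrix rat arrays. The values deposited by the authors are log2 expression per probe set, summarised with RMA per the submitters' processing notes, which adjusts background and normalizes between arrays, so a difference is relative to the array as a whole. The sources used here give neither its settings nor a genome build. Of 36685 probe sets, 18511 had 1 gene symbol, 575 several and 17599 none in the platform annotation. The probe set with the highest mean was kept for each of 18166 genes. Of the 35 members, 34 matched RefSeq by gene number, and Tnfrsf13b kept its annotated symbol.

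All 10 arrays were fitted together with limma 3.58.1 in R 4.3.3, with 1 mean per group and Benjamini-Hochberg adjustment over all genes at 0.05. Intervals cover 95%. On simulated arrays of 18166 genes, with 100 changed at each size and the spread estimated without under-developed replicate 4, the comparison of under-developed with normal obese testes recovered 79% of genes changed by 1 log2 unit and 93% changed by 2, obese against lean 60% and 88%, and under-developed against lean 53% and 89%, with 16, 6 and 7 unchanged genes called in the 3 comparisons. The simulated under-developed arrays were all alike in spread, whereas the real fit of all arrays held the unlike replicate 4. The fit without replicate 4 held 1 under-developed array fewer than the simulation. These shares are thus not the recovery of either fit. The number of arrays limits the precision. The genes given array by array are the 12 with the largest difference, the 3 with the smallest p between obese and lean rats, and members chosen for their role. The members, lists and tests were chosen with earlier results of these data known.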

Additional observations from a re-analysis of the deposited data

Results flagged for a closer look

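Among the 70 groups of 4 arrays that the 35 members give, 3 held 1 array far from the others, and chance alone gives about 1 in 20. Faslg read 5.25 in normal obese replicate 4, with the nearest array of its group at 5.45. Tnfrsf11a read 6.08 in normal obese replicate 2, with the nearest at 5.97. Tnfsf4 read 5.73 in under-developed replicate 4, with the nearest at 5.52.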

How the results depend on the processing

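With all arrays, 0 members were called in the 3 comparisons, and leaving out 1 array at a time gave 0 to 13 members higher against normal obese testes and 0 to 10 against lean testes, the highest of each without under-developed replicate 4. With 1 lean array left, that array is assumed to vary like the other groups. Array weights gave 13 higher and 1 lower against normal obese testes, and 12 higher and 1 lower against lean testes. The shares of all genes called with array weights were not counted, so these counts have no background beside them. Sertoli centring gave 3 higher and 22 lower against normal obese testes, beside 1.67% and 71.4% of all genes. The median difference of the members became -0.32 with ribosomal protein centring, -0.83 with Sertoli centring and 1.36 with a filter at the median signal, which kept 4 members. Against lean testes it became -0.44, -0.91 and 1.36, and between obese and lean rats -0.11, -0.06 and 0.09. Without under-developed replicate 4, the 13 members called higher became 6 with ribosomal protein centring and 3 with Sertoli centring, and 12 to 15 when a further array was left out. The 0 called lower became 1 with median centring, 22 with ribosomal protein centring and 28 with Sertoli centring. With replicate 4 alone left out, 29.6% of all genes were called higher and 26.4% lower. These shares were not counted with a further array left out.

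With all arrays, Sertoli centring turned Tnfsf13b to -0.18, Tnfrsf1b to -0.25, Ltb to -0.40, Tnfsf13 to -0.49 (-0.21 against lean testes), Tnfrsf21 to -0.58, Tnfrsf25 to -0.72 and Tnfrsf11a to -0.72. Ribosomal protein centring turned Tnfrsf21 to -0.07, Tnfrsf25 to -0.20 and Tnfrsf11a to -0.21. Without replicate 4, Sertoli centring turned Cd27 to -1.0, Ltb to -0.65, Tnfrsf11a to -0.95, Tnfrsf1b to -0.31, Tnfrsf21 to -0.81, Tnfrsf9 to -1.08, Tnfsf13 to -0.59 and Tnfsf13b to -0.22, and ribosomal protein centring turned Cd27 to -0.36, Ltb to -0.01, Tnfrsf11a to -0.30, Tnfrsf21 to -0.17 and Tnfrsf9 to -0.44. Without replicate 4, the median of all genes was shifted by -0.76 with ribosomal protein centring and by -1.4 with Sertoli centring. Of the 17 Sertoli markers, 13 were called higher and 1 lower without replicate 4, beside 29.6% and 26.4% of all genes. Which scale is the right one for these testes was not tested.

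The labels do not say whether arrays with the same replicate number share anything else. Same-numbered normal obese and under-developed arrays deviated together by a correlation of 0.08, 0.01, 0.02 and 0.26 for numbers 1 to 4. For numbers 1 and 2, lean arrays gave 0.14 and -0.06 with normal obese arrays, and 0.21 and 0.08 with under-developed arrays. Pairs with unlike numbers were not computed, so a pairing was not tested by these values. With a replicate block, 0 members were called in each comparison, and 9 higher and 0 lower without under-developed replicate 4. The shares of all genes called with the block were not counted. Settings after the removal of replicate 4 were chosen after seeing the data.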
